A study of Mus musculus with 18 samples.

Results

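Distal peaks that carry at least 2 copies of the AP-1 recognition sequence TGAGTCA or its complement TGACTCA were examined by ATAC-seq in mouse bone marrow-derived macrophages (BMDMs). ATAC-seq reads open chromatin from the places where a transposase can cut, and accessibility here is the read count in a peak. Members were chosen from the mm9 genome sequence under each peak and not from its counts. The bounds of the peaks came from peak calls on the study's libraries. Peak width, and with it the number of matches, therefore depended on the reads. Of 157614 distal peaks in the authors' union of 194284 peaks, 8074 (5.12%) held 2 or more exact matches. All 8074 passed the filter on low counts, as did 157564 of all distal peaks.

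All 18 libraries came from 12-week-old male Il10-/- mice on a C57BL/6J background, whose own gene for the anti-inflammatory cytokine IL-10 is deleted, so no comparison with wild-type cells was made and the deletion was not checked in these data. Marrow was grown into BMDMs in L929-conditioned medium, a source of macrophage growth factor. Cells were left untreated or treated for 12 h with 500 nM (+)-JQ1, an inhibitor of the BET bromodomain proteins, or with 10 ng/mL IL-10. LPS (50 ng/mL) or PBS was then added for a further 4 h. Marrow of 3 mice gave 6 groups of 3 libraries, and the replicate number was read as the mouse: unstimulated, (+)-JQ1, IL-10, LPS, LPS + (+)-JQ1 and LPS + IL-10. The 3 groups without LPS received PBS.

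AP-1 is a family of dimers of FOS, JUN, ATF and MAF proteins. The sequence TGA(G or C)TCA is its palindromic target, the TPA response element (TRE), named after the phorbol ester through which it was found. In macrophages, JUN family dimers help the lineage factor PU.1 to keep enhancers open, and LPS signalling through Toll-like receptor 4 and MAP kinases raises the synthesis and activity of FOS and JUN proteins. A TRE followed by GC also resembles the target of NRF2 and BACH1 with small MAF partners. A match to 7 letters is a description of the sequence and does not show that a factor was bound.

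The sequences of the members on which the results turn are given first. Each is the mm9 plus strand, 5′ to 3′, with 20 bases on either side of the outer TREs, and capitals mark each TRE. The first 5 belong to the members with the largest rises with LPS whose closest TREs lay near enough to be printed together. They show how the distance between TREs and the bases beside them varied among the strongest responders.

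Ttc26, chr6:38324370-38324462: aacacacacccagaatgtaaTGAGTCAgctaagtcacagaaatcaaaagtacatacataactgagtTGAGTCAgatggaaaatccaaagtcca
Tnfaip3, chr10:18797762-18798050: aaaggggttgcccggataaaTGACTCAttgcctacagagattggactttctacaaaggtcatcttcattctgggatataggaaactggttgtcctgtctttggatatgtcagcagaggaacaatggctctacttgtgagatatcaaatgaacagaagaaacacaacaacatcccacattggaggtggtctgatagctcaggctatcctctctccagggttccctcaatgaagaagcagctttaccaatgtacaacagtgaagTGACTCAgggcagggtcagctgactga
Gata2, chr6:88124822-88124943: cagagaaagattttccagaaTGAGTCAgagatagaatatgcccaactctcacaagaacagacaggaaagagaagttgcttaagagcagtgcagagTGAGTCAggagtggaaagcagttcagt
Mx2, chr16:97791206-97791302: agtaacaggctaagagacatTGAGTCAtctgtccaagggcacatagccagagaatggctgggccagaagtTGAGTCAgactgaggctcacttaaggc
Phldb2, chr16:45758635-45758733: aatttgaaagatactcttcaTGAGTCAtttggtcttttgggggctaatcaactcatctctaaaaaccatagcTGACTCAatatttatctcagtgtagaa

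The starts of the 2 closest TREs lay 46 bases apart in Ttc26, 242 in Tnfaip3, 75 in Gata2, 50 in Mx2 and 52 in Phldb2. The next 3 are the region 9.23 kb from the Hmox1 start, where 3 TREs 28 and 29 bases apart each have GC beside them, a region within 25 kb of Junb with 3 of its 4 TREs, and the Pfkfb3 peak that was highest with LPS + IL-10.

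Hmox1, chr8:77607830-77607933: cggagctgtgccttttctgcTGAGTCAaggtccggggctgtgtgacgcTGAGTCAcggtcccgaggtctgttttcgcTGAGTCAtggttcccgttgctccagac
Junb (nearest start Hook2), chr8:87509536-87509676: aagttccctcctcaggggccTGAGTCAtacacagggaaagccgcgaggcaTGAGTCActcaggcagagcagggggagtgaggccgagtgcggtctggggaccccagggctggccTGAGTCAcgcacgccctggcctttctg
Pfkfb3, chr2:11407975-11408161: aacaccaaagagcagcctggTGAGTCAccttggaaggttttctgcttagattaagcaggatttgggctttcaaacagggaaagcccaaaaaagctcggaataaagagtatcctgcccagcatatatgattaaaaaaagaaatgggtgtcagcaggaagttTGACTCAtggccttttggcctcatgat

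In wider peaks the TREs lie too far apart to print in 1 run, so each TRE is shown alone with its 20 flanking bases. These are the Aoah and Ptgs2 peaks that (+)-JQ1 lowered under LPS, the March1 and Rasgef1b peaks that rose and fell with IL-10 under LPS, and the Socs3 peak that rose most with IL-10 alone.

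Aoah TRE 1, chr13:20896617-20896663: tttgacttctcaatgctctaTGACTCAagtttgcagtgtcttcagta
Aoah TRE 2, chr13:20896929-20896975: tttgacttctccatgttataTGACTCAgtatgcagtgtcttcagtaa
Ptgs2 TRE 1, chr1:151955358-151955404: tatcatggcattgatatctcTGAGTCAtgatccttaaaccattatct
Ptgs2 TRE 2, chr1:151955907-151955953: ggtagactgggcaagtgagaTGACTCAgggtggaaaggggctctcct
March1 TRE 1, chr8:68956976-68957022: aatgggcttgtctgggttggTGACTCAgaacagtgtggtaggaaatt
March1 TRE 2, chr8:68957920-68957966: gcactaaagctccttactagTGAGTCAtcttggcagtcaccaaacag
Rasgef1b TRE 1, chr5:99650004-99650050: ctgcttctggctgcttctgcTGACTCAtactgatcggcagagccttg
Rasgef1b TRE 2, chr5:99653031-99653077: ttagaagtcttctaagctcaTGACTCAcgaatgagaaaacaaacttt
Rasgef1b TRE 3, chr5:99653941-99653987: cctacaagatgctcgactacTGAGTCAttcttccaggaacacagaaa
Socs3 TRE 1, chr11:117825211-117825257: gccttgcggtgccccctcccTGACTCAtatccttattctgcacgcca
Socs3 TRE 2, chr11:117825588-117825634: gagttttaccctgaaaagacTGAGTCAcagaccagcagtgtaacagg

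The number of TREs fell off steeply. Of the distal peaks, 117715 had none, 31825 had 1, 6380 had 2, 1271 had 3 and 423 had 4 or more. Members with exactly 2 made up 79% of the set, and the largest number was 18. The 8074 members held 18527 of the 50352 TREs in distal peaks (36.8%).

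Members were wide and strong peaks, which sets the terms of every comparison below. Their median width was 1921 bases against 906 bases for all distal peaks, and 29% of members were over 3000 bases wide against 5.53% of distal peaks. The median normalized count, on the scale of trimmed mean of M-values (TMM), was 106 in members and 28.4 in all distal peaks. Per kilobase of peak the medians were 43.9 and 29.1, so members were also the denser peaks. GC content was 45.8% in members and 45.6% in all distal peaks, and the median distance to the nearest transcription start site (TSS) was 16.1 kb and 15.1 kb. Members lay over an exon in 18.7%, in an intron in 40% and between genes in 41.2% of cases, against 15.6%, 44.4% and 40% of all distal peaks.

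Within a peak, TREs gathered at the centre in narrow members only. In members of over 500 and up to 1000 bases, 46.4% of TREs lay within 100 bases of the peak centre, a stretch that was 27.7% of their length. In members of over 1000 and up to 1500 bases the values were 17.4% and 16.5%, and in those of over 1500 and up to 2000 bases 12.1% and 11.5%. Peaks with 1 TRE gave 44.5% against 28.5% of length in the narrowest of these classes. The closest TREs of a member were a median of 332 bases apart, and 1106 members (13.7%) had a pair within 50 bases. GC flanked 16.8% of the TREs in members on either strand (TGAGTCAGC or TGACTCAGC) and 16.2% in all distal peaks. The longer palindrome ATGAGTCAT or ATGACTCAT made up 5.44% and 5.98%.

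Each library held between 12020526 and 25908198 counts in peaks, of which 48.9% to 59.2% fell in distal peaks, and a member had a median of 100 counts in a library. Unstimulated libraries 1 and 2 stood apart in composition, with TMM factors of 1.243 and 1.151, while the third, at 1.038, lay within the 0.8964 to 1.049 of the other 15. Results that rest on the unstimulated group are therefore given with comparisons that do not use them. The lanes named in the labels differed between mice. Mouse 1 was in lane 5 throughout and mouse 3 in lane 6. Mouse 2 was in lane 5 without LPS and in lane 6 with it, so lane partly went with LPS. Promoter peaks over the TSS of the macrophage genes Lyz2, Spi1, Emr1 and Fcgr1 had 327 to 419 normalized counts per kilobase, against a median of 45.7 for promoter peaks. Itgam, of the same list, had 89.7, and Csf1r, Cd14 and Cd68 had no promoter peak over the TSS. None lay over the TSS of Cd3e, Cd3g, Cd4, Col1a2 or Ly6g. Col1a1, listed with Col1a2 as a fibroblast gene, had 106 normalized counts per kilobase, above Itgam. The dendritic cell gene Flt3 had 66.9 and the B cell genes Pax5 and Cd79a 46 and 18.2. Epcam (epithelial) and Elane (neutrophil) had 43.2 and 28. Lck, Zbtb46 and S100a8, listed as T cell, dendritic cell and neutrophil genes, had 332, 522 and 290, so not every listed gene of another cell type had a closed promoter, and the part of other cells in the results was not tested.

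Members took a larger share of all distal counts in every library with LPS than in every library without it. The shares were 12.05%, 12.21% and 12.56% in the unstimulated libraries, 12.8%, 12.81% and 12.79% with (+)-JQ1, and 12.68%, 12.66% and 12.58% with IL-10. With LPS they were 13.8%, 13.72% and 13.41%, with LPS + (+)-JQ1 14.12%, 13.75% and 13.54%, and with LPS + IL-10 14.05%, 13.66% and 13.69%. The 9 libraries with LPS did not overlap the 9 without. Group means were 12.27% ± 0.259 (SD, n = 3) unstimulated, 13.64% ± 0.206 with LPS, 13.81% ± 0.291 with LPS + (+)-JQ1 and 13.8% ± 0.216 with LPS + IL-10. The 3 LPS groups overlapped one another. A share does not depend on the scaling between libraries. In members of at most 1500 bases the separation was lost: the (+)-JQ1 libraries, at 2.133%, 2.247% and 2.152%, overlapped those with LPS, at 2.277%, 2.133% and 2.109%. Distal peaks with 1 TRE also took a larger share, from 26.15% ± 0.292 (SD, n = 3) unstimulated to 27.12% ± 0.211 with LPS. Their lowest LPS library, at 26.93%, lay just below a (+)-JQ1 library at 26.94%. Distal peaks with no TRE went the other way, from 61.58% ± 0.551 (SD, n = 3) unstimulated to 59.23% ± 0.406 with LPS.

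**Figure D1:**
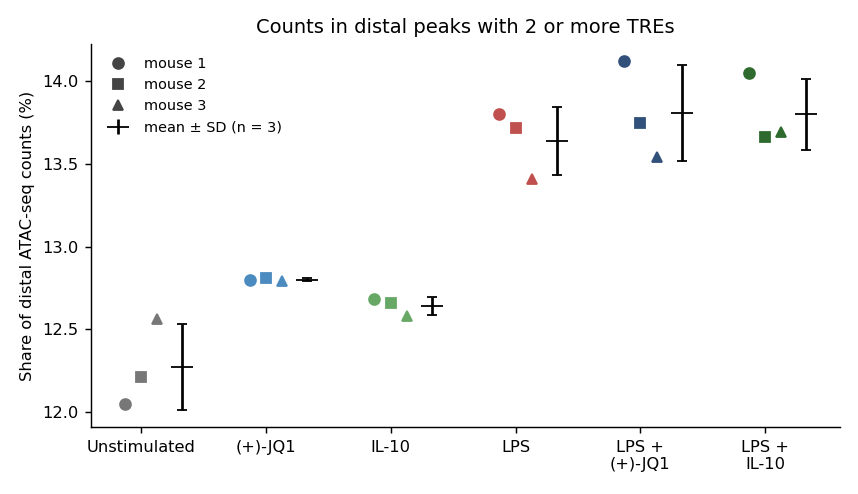
Share of distal ATAC-seq counts (%, vertical axis, which starts near 12 and not at 0) that lay in distal peaks with 2 or more TREs, in each library of the 6 groups; symbols mark the 3 mice and crosses the mean ± SD. The 9 LPS libraries sit between 13.41% and 14.12%, above the 9 others at 12.05% to 12.81%.

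LPS opened members more often than it opened distal peaks as a whole. A peak was called when its false discovery rate (FDR) from edgeR's quasi-likelihood test was under 0.05 and its log2 fold-change was beyond 0.5 in either direction. Against unstimulated cells, 2010 members (24.9%) rose with LPS, where 11.1% of all distal peaks did. There were 700 members that fell (8.67%), against 11% of all distal peaks, an order that turned with loess offsets (11.6% against 8.66%), which remove trends with peak strength. The median log2 fold-change was 0.16 in members and -0.07 in all distal peaks, a difference of 0.23, which was 0.072 with loess offsets. Within mouse 1, 2 and 3 the difference was 0.31, 0.24 and 0.11. Of the members called, 74.2% rose, against 50.3% of all distal peaks called. The split of members moved with the scaling: it was 47.9% with total-count scaling and 62.7% with loess offsets. The share of members that rose stayed above that of distal peaks under both, at 15.6% against 6.74% and at 19.6% against 10.9%. Total-count scaling moved the median of all distal peaks by -0.23 in this comparison.

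Comparisons of LPS within each treatment use no unstimulated library and share no library with the one above. They were added with the results known. With (+)-JQ1 in both arms, 1234 members (15.3%) rose with LPS against 5.91% of distal peaks, and 322 (3.99%) fell against 3.72%. With IL-10 in both arms, 1695 members (21%) rose against 9.47%, and 444 (5.5%) fell against 6.68%. The 3 mice gave differences between the median of members and that of all distal peaks of 0.16, 0.11 and 0.07 within (+)-JQ1, and of 0.16, 0.11 and 0.11 within IL-10. The split of member calls was 79.3% and 79.2% upward, against 61.3% and 58.7% in all distal peaks. Total-count scaling, loess offsets, DESeq2 size factors and a fit of distal peaks alone left that of members between 77.2% and 83.9%.

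Members that rose with LPS alone were followed into the other comparisons. Of the 2010 that rose with LPS alone, 996 (49.6%) also rose within (+)-JQ1, where they were 80.7% of those that rose, and 1118 (55.6%) rose within IL-10, where they were 66% of those that rose. For all distal peaks the same shares were 39.4%, 74.2%, 43.6% and 51.3%. There were 757 members that rose in all 3 comparisons, 9.38% of members, where 2.97% of distal peaks did. Of the 2010, 1 fell within (+)-JQ1 and 5 within IL-10, where 11 and 103 of the 17553 distal peaks that rose with LPS did.

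**Figure D2:**
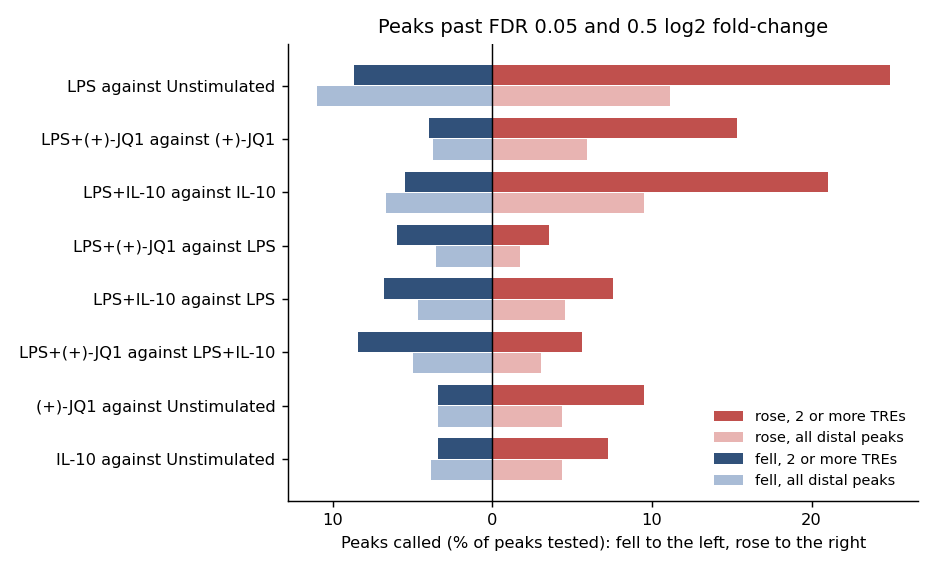
Peaks past FDR 0.05 and a log2 fold-change of 0.5 (% of peaks tested, horizontal axis; rises to the right and falls to the left) in 8 comparisons, for members (dark bars) and all distal peaks (light bars). In the 3 LPS comparisons at the top, members rose in 24.9%, 15.3% and 21% against 11.1%, 5.91% and 9.47% of distal peaks.

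The member with the largest rise lay 6.16 kb from the TSS of Ttc26, a gene for a ciliary transport protein, and had 3 TREs. Its normalized counts were 46.5, 48.5 and 38.1 in unstimulated cells and 462, 326 and 394 with LPS. The groups were far apart in all 3 mice, with a log2 fold-change of 3.15 ± 0.20 (SE; edgeR adjusted p = 8.9e-27). With LPS + (+)-JQ1 the counts were 405, 224 and 183, where mouse 1 lay inside the LPS range and the other two below it. With LPS + IL-10 they were 257, 187 and 212, all below the LPS range.

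Tnfaip3 encodes A20, a feedback inhibitor of NF-κB signalling, and the member 61.8 kb from its TSS went from 35.2, 19.6 and 40.1 counts to 285, 244 and 277 with LPS. The log2 fold-change was 3.09 ± 0.21 (edgeR adjusted p = 7.5e-24). LPS + IL-10 left it at 254, 212 and 227, which overlapped LPS. LPS + (+)-JQ1 gave 273, 118 and 143, again with mouse 1 alone near the LPS level.

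The peak 18.6 kb from Gata2, a haematopoietic transcription factor gene, rose from 18.9, 9.29 and 8.24 counts to 104, 120 and 69.6 (log2 fold-change 3.05 ± 0.32, edgeR adjusted p = 4.3e-14). With LPS + (+)-JQ1 it was at 49, 31.8 and 29.1 and with LPS + IL-10 at 101, 78.4 and 72.5, so the IL-10 libraries overlapped LPS and the (+)-JQ1 libraries did not. The exonic peak 33.3 kb from the start of Mx2, an interferon-induced GTPase gene, rose from 41.5, 49.5 and 47.4 to 405, 300 and 444 (log2 fold-change 3.04 ± 0.19, edgeR adjusted p = 3.6e-27). Both treatments lowered it under LPS without overlap, to 118, 182 and 119 with (+)-JQ1 and to 226, 157 and 161 with IL-10. Without LPS they also lowered it, by log2 fold-changes of -0.78 with (+)-JQ1 and -1.07 with IL-10 (edgeR adjusted p = 0.026 and 0.0023). The response to LPS differed from that of untreated cells by -0.67 with (+)-JQ1 (edgeR adjusted p = 0.23) and by -0.008 with IL-10.

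Ptgs2 encodes cyclooxygenase 2, the inducible enzyme of prostaglandin synthesis. The peak 8.07 kb from its TSS rose from 33.9, 37.2 and 32.9 counts to 256, 243 and 273 (log2 fold-change 2.88 ± 0.23, edgeR adjusted p = 1.7e-19). LPS + (+)-JQ1 gave 156, 62.5 and 59, below every LPS library, with a log2 fold-change against LPS of -1.56 ± 0.21 (edgeR adjusted p = 7.8e-09). LPS + IL-10 gave 344, 182 and 233, on both sides of the LPS values. The intronic Phldb2 peak rose from 20.1, 15.5 and 23.7 to 167, 115 and 147 (log2 fold-change 2.85 ± 0.25, edgeR adjusted p = 2e-17), and IL-10 took it down to 50.6, 30.5 and 54.4 under LPS.

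**Figure D3:**
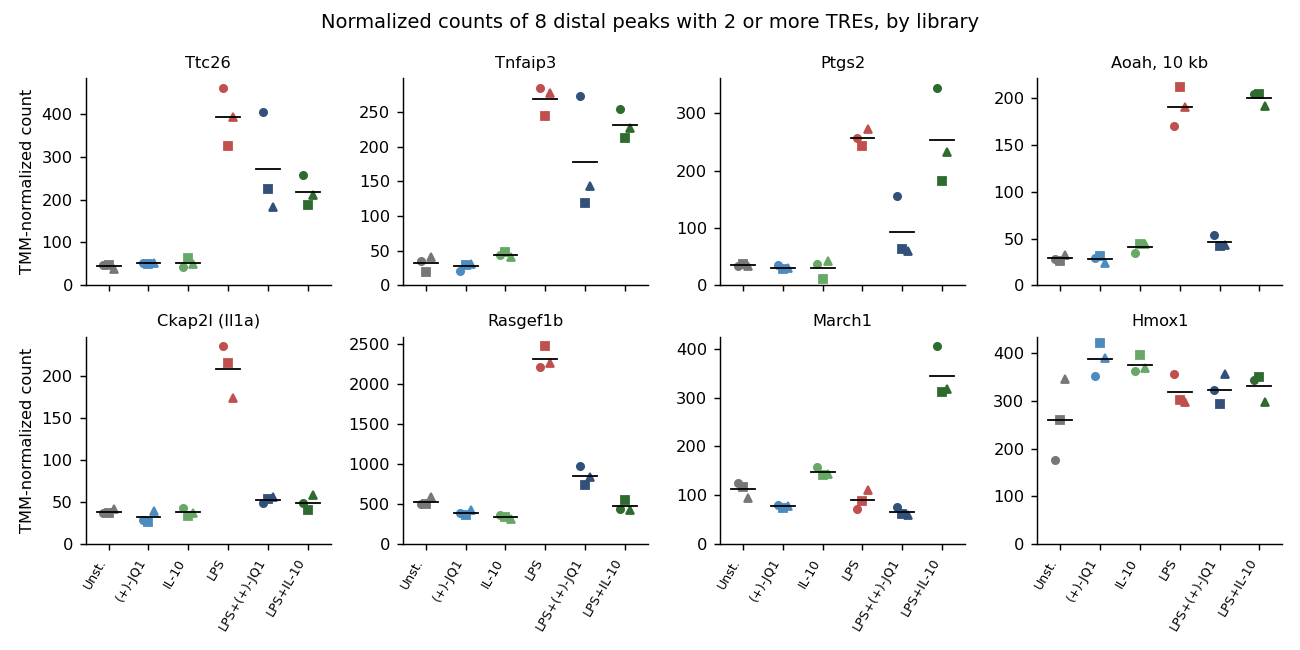
TMM-normalized counts (linear vertical axes from 0, a scale for each panel) of 8 members in each library; circles, squares and triangles are mice 1, 2 and 3 and bars the mean of 3. Aoah at 10.1 kb drops from 170 to 212 with LPS to 42 to 53.3 with LPS + (+)-JQ1, while March1 reaches 311 counts or more in the LPS + IL-10 libraries alone.

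Members that closed most with LPS were wide. The peak 5.51 kb from Slamf6, a receptor gene of the SLAM family, spans 8082 bases and went from 318, 324 and 449 counts to 63, 71.3 and 59.5. Its log2 fold-change was -2.49 ± 0.17 (edgeR adjusted p = 7.5e-25). The others of the 6 largest falls lay near Cerk (ceramide kinase), Apoc1 (an apolipoprotein), Galc (galactosylceramidase), Ccdc83 and Slc43a2 (an amino acid transporter), with log2 fold-changes between -2.27 and -1.94 and widths from 3229 to 5149 bases. The Apoc1 peak lay at 414, 669 and 832 counts in unstimulated cells, 161, 142 and 165 with LPS and 910, 1200 and 1180 with (+)-JQ1 alone. With IL-10 alone it lay at 889, 941 and 997. The LPS libraries lay below the unstimulated range and those of both treatments alone above it, with (+)-JQ1 and IL-10 overlapping.

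The share of peaks that rose with LPS increased with the number of TREs. It was 9.16% of distal peaks with none, 15% with 1, 23.4% with 2, 29% with 3 and 35.5% with 4 or more. Within (+)-JQ1 the shares were 4.56%, 8.53%, 14.4%, 17.4% and 22.2%, and within IL-10 7.8%, 12.7%, 20%, 24.1% and 27.4%. The share that rose in all 3 comparisons went from 2.14% and 4.45% to 8.81%, 10.4% and 14.9%. Falls with LPS alone went from 11.3% with no TRE to 7.09% with 4 or more, but with loess offsets they went up, from 8.21% to 16.8%.

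Wide peaks hold more TREs by length alone, so peaks of like width were set side by side. Among those of over 500 and up to 1000 bases, the share that rose with LPS was 5.97% of 73941 peaks with no TRE, 9.34% with 1, 15.8% of 1550 with 2 and 25.9% of 162 with 3. Within (+)-JQ1 these shares were 2.67%, 4.95%, 8.45% and 13%, and within IL-10 5.3%, 8.36%, 13.9% and 21%. Over 1000 and up to 1500 bases the LPS shares were 11.6%, 14.9%, 23.6% and 30.9%. Over 3000 bases they were nearly level, at 24.4%, 26.3%, 28.6% and 27.8%, and 33.7% with 4 or more. The number of TREs went with opening most clearly in the narrow peaks. Peaks of exactly 500 bases are in none of these classes.

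**Figure D4:**
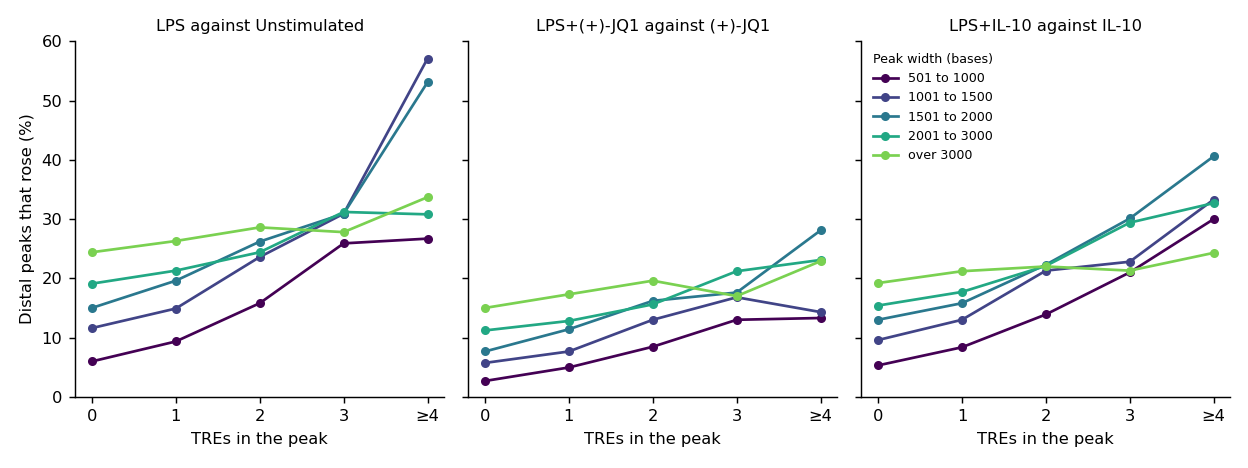
Distal peaks that rose (%, vertical axis) by number of TREs (horizontal axis) in 5 classes of peak width (lines), for LPS against unstimulated cells, within (+)-JQ1 and within IL-10. Lines climb from 0 to 3 TREs in the classes up to 3000 bases and are flatter above; the points at 4 or more TREs rest on 30, 21, 32, 52 and 288 peaks from the narrowest class to the widest.

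Count level gave the second control, since a stronger peak is called more readily. Among peaks with a mean of 50 to 100 normalized counts, the share that rose with LPS was 16.1% with no TRE, 19.9% with 1, 22.5% with 2 and 26.2% with 3. Within IL-10 it was 13.1%, 18.6%, 26.4% and 30.4%. At 200 counts and over the LPS shares were 29.5%, 32.9%, 35.7% and 33.7%. Within IL-10 they were 10.4%, 14.6%, 18.7% and 20.6%.

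**Figure D5:**
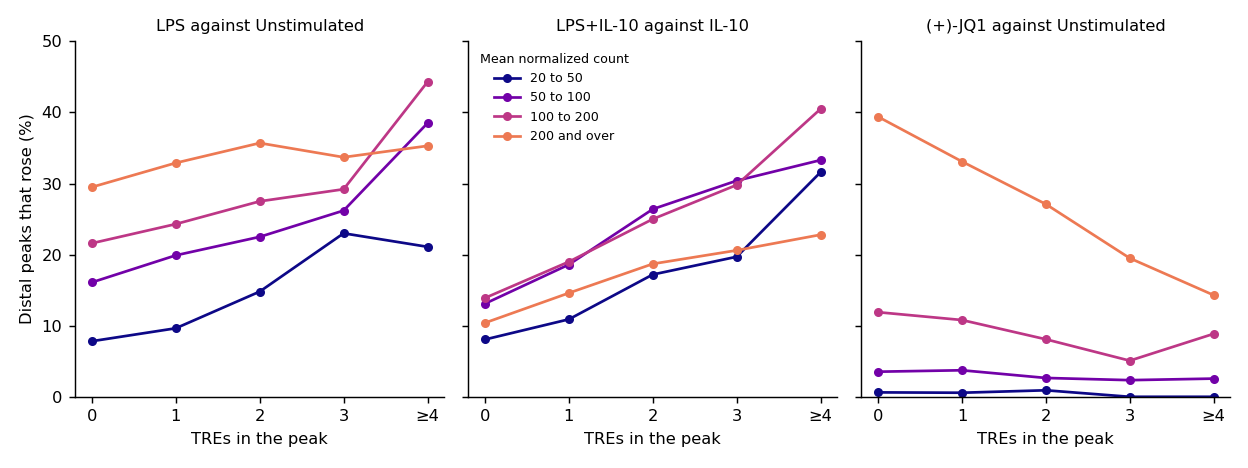
Distal peaks that rose (%, vertical axis) by number of TREs (horizontal axis) in 4 classes of mean normalized count (lines), for LPS against unstimulated cells, LPS + IL-10 against IL-10 and (+)-JQ1 against unstimulated cells. Lines climb from 0 to 2 TREs in the first pair of panels, while the class of 200 counts and over falls from 39.4% with no TRE to 14.3% with 4 or more with (+)-JQ1 alone; the class of 20 to 50 counts has only 19 peaks with 4 or more TREs.

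Close pairs of TREs went with opening. In members of over 500 and up to 1500 bases, 29.3% of the 629 whose closest TREs lay within 50 bases rose with LPS, against 19.1% of 1053 at 51 to 200 bases and 17.5% of 1409 beyond 200 bases. Within (+)-JQ1 the shares were 15.3%, 10.4% and 9.37%, and within IL-10 24.8%, 16.7% and 15.5%. Falls with LPS were 3.82%, 5.89% and 9.44%. These classes mix members with different numbers of TREs. A peak with more TREs has closer pairs by number alone, and such peaks rose more often. Spacing and number were not told apart. By distance from the peak centre, 19.5% rose with LPS where a TRE lay within 100 bases of the centre and 21.5% where none did.

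The bases beside the TRE went with small differences. In members of over 500 and up to 1500 bases, 26.1% of the 337 with a TRE in the longer palindrome and none followed by GC rose with LPS, against 18.4% of the 880 with a GC-flanked TRE and no palindrome. In peaks of that width with 1 TRE the shares were 13.9% and 10.1%. Both orders were the same within (+)-JQ1, at 12.5% and 9.43% in members, and within IL-10, at 21.4% and 14.8%.

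Other motifs were counted in members and in distal peaks of the same width. At over 1000 and up to 1500 bases the ETS sequence GAGGAAGT, bound by PU.1 and its relatives, was in 13.6% of members and 13.5% of distal peaks on either strand. The C/EBP sequence TTGCNNAA was in 41.4% and 41.3%, and the cAMP response element TGACGTCA in 0.445%, which is 6 members, and 0.981%. The interferon-stimulated response element, bound by IRF proteins, was in 15.9% and 16.9%, and the κB sequence, bound by NF-κB, in 14.2% and 12.4%. Over 3000 bases members held more: κB was in 42.5% against 37.5% and ETS in 34.4% against 31.2%. None of these motifs contains a TRE.

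Members without any of these 5 motifs still rose more often than peaks without a TRE. At over 500 and up to 1500 bases, 16.4% of 1434 such members rose with LPS, against 5.48% of 49414 peaks with neither a TRE nor another of the motifs. Members with a κB match rose in 30.1% and those with an interferon element in 27.9%. Peaks with no TRE and at least 2 κB matches rose in 17.6%, and those with at least 2 interferon elements in 25.2%. Within IL-10 the same classes rose in 24.2% and 20.4% of members and in 10.2% and 11.3% of the peaks with no TRE.

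(+)-JQ1 under LPS lowered more members than it raised, as it did among all distal peaks. Against LPS alone, LPS + (+)-JQ1 lowered 481 members (5.96%) and raised 287 (3.55%), where 3.55% and 1.74% of distal peaks fell and rose. Without replicate 2 the counts were 228 and 84, and without replicate 3 they were 287 and 167. The median log2 fold-change of members was 0.02. The largest fall named lay near Tlr7, which encodes an endosomal RNA sensor: 301, 313 and 347 counts with LPS and 72.1, 55.4 and 87.4 with LPS + (+)-JQ1. The log2 fold-change was -2.14 ± 0.17 (edgeR adjusted p = 2.5e-19). The (+)-JQ1 libraries without LPS, at 113, 89.5 and 121, also lay below the unstimulated ones at 187, 190 and 233.

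Aoah had a pair of members in its introns, 10.1 kb and 34.2 kb from the TSS. Its product, the enzyme acyloxyacyl hydrolase, inactivates LPS by removing fatty acid chains. The first peak was at 27.7, 25.8 and 32.9 counts in unstimulated cells and at 170, 212 and 191 with LPS. It was at 53.3, 42 and 43 with LPS + (+)-JQ1 and at 205, 205 and 192 with LPS + IL-10. The second followed it, from 33.9, 26.8 and 22.6 to 197, 189 and 178, then 46.1, 41 and 49.5 with (+)-JQ1 and 169, 197 and 156 with IL-10. Against LPS, their log2 fold-changes were -2.07 ± 0.19 and -2.04 ± 0.20 with (+)-JQ1 (edgeR adjusted p = 4e-15 and 2.6e-14) and 0.07 ± 0.16 and -0.12 ± 0.17 with IL-10 (0.85 and 0.75). Within (+)-JQ1 both still rose with LPS, by 0.71 ± 0.24 and 0.98 ± 0.26 (edgeR adjusted p = 0.045 and 0.004), and within IL-10 by 2.30 ± 0.19 and 2.67 ± 0.21 (1.6e-18 and 6e-20).

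Of the members that (+)-JQ1 raised under LPS, the 4 with the largest rises by the rule for named members are given. The Slc43a2 peak went from 75.9, 88.2 and 62.8 counts with LPS to 128, 221 and 196 (log2 fold-change 1.28 ± 0.17, edgeR adjusted p = 9e-09). Peaks near Epb4.1 (a membrane skeleton protein), Gm10260 and Kcnk13 (a potassium channel) followed with log2 fold-changes of 1.24, 1.23 and 1.17. In all 4 the LPS libraries lay below the unstimulated mean. (+)-JQ1 alone also raised Epb4.1 and Kcnk13, by log2 fold-changes of 0.75 and 0.99 (edgeR adjusted p = 0.0026 and 2.7e-05), and at neither did the response to LPS differ with (+)-JQ1 past the threshold (edgeR adjusted p = 0.39 and 0.82).

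IL-10 under LPS moved members in both directions, in a balance that depended on the scaling. It raised 612 (7.58%) and lowered 548 (6.79%), where 4.54% and 4.65% of distal peaks rose and fell. Total-count scaling gave 779 and 428. Without replicate 2 the counts were 358 and 289. The median log2 fold-change was 0.02. The exonic peak of Rasgef1b, which encodes an exchange factor for Ras proteins, fell the most among the named members. It had 502, 502 and 584 counts in unstimulated cells, 2210, 2480 and 2270 with LPS, 970, 743 and 836 with LPS + (+)-JQ1 and 437, 546 and 425 with LPS + IL-10. Against LPS its log2 fold-change was -2.31 ± 0.14 with IL-10 (edgeR adjusted p = 6.2e-27) and -1.45 ± 0.13 with (+)-JQ1 (edgeR adjusted p = 1.9e-15). LPS + IL-10 libraries overlapped the unstimulated range. With IL-10 alone the Rasgef1b peak lay lower, at 360, 334 and 308 counts. Within IL-10, LPS still raised it, by 0.49 ± 0.14 (edgeR adjusted p = 0.0067).

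The member whose nearest start is that of Ckap2l, within 25 kb of Il1a (interleukin-1α), fell with both treatments. It was at 236, 215 and 174 counts with LPS, 49, 53.3 and 55.4 with LPS + (+)-JQ1 and 48.7, 40.3 and 58.7 with LPS + IL-10, and at 36.5, 37.2 and 42.2 in unstimulated cells. Its log2 fold-changes against LPS were -1.98 ± 0.20 and -2.07 ± 0.20 (edgeR adjusted p = 1.4e-13 and 1e-14). Il7, a lymphocyte growth factor gene, had a peak at 218, 245 and 194 counts with LPS that was at 57.3, 53.3 and 67.3 with IL-10. With LPS + (+)-JQ1 it was at 242, 108 and 72.1, where mouse 1 lay inside the LPS range and the other two below it.

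March1 encodes a ubiquitin ligase that removes MHC class II from the cell surface. Its intronic peak had 124, 117 and 94.7 counts in unstimulated cells, 70.8, 88.2 and 111 with LPS, 76.4, 61.5 and 59.7 with LPS + (+)-JQ1 and 407, 311 and 318 with LPS + IL-10. The LPS + IL-10 libraries lay above all others. The log2 fold-change against LPS was 1.95 ± 0.16 (edgeR adjusted p = 1.3e-17), and IL-10 alone gave 158, 141 and 143. A further member, whose nearest start is that of 1810029B16Rik, went from 173, 229 and 201 counts with LPS to 684, 550 and 612 with LPS + IL-10. F13a1 (a coagulation factor subunit) and Bre (a DNA repair complex subunit) had members with log2 fold-changes of 1.80 and 1.98.

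The treatments were also set against each other under LPS. LPS + (+)-JQ1 was lower than LPS + IL-10 at 680 members (8.42%) and higher at 451 (5.59%), where 5% and 3.07% of distal peaks were lower and higher. Without replicate 2 the counts were 374 and 198. Pfkfb3, which encodes a glycolytic regulator, had a narrow exonic member of 672 bases. It was at 18.1, 13.1 and 13.5 counts with LPS, 20.2, 11.3 and 21.9 with LPS + (+)-JQ1 and 118, 52.2 and 78.5 with LPS + IL-10. The log2 fold-change between the treatments was -2.21 ± 0.31 (edgeR adjusted p = 3.9e-08). In the other direction, the peaks with the nearest starts of Slc25a13, a mitochondrial carrier gene, and Lphn2, an adhesion receptor gene 589 kb away, were higher with (+)-JQ1 by log2 fold-changes of 2.04 and 1.74. Slc25a13 had 166, 167 and 150 counts with LPS + (+)-JQ1 and 41, 37 and 38.8 with LPS + IL-10.

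Without LPS, (+)-JQ1 raised 768 members (9.51%) and lowered 273 (3.38%), where 4.34% and 3.39% of distal peaks rose and fell. IL-10 raised 586 (7.26%) and lowered 278 (3.44%), where 4.33% and 3.85% did. Without replicate 2 the counts were 197 and 75 with (+)-JQ1 and 107 and 40 with IL-10. The upward share of the member calls was 73.8% with (+)-JQ1 and 67.8% with IL-10, against 56.2% and 52.9% in all distal peaks. That of members did not hold under other scalings. Total-count scaling made it 9.72% and 15.9%, with shifts of the median of all distal peaks of -0.28 and -0.21, and loess offsets made it 17.9% and 25.7%. Among peaks of 200 counts and over, 39.4% of those with no TRE rose with (+)-JQ1, 27.1% with 2, 19.5% with 3 and 14.3% with 4 or more. Among peaks of 50 to 100 counts the shares with none and with 2 were 3.53% and 2.65%.

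Single members were clearer. The Socs3 peak 4.85 kb from the start of this gene for an inhibitor of JAK-STAT signalling was at 382, 394 and 483 counts in unstimulated cells and at 1160, 1320 and 1250 with IL-10 alone. The log2 fold-change was 1.56 ± 0.14 (edgeR adjusted p = 1.3e-15). LPS took it to 1040, 949 and 967, and LPS + IL-10 to 1300, 1220 and 957, so that all groups with IL-10 or LPS lay above the unstimulated one. Akap7, an anchoring protein gene, had a peak 70.1 kb from its start at 152, 163 and 139 counts unstimulated and 416, 427 and 450 with IL-10. Peaks near Pigy and Lamb3 had the largest falls with IL-10, by log2 fold-changes of -1.52 and -1.18.

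With (+)-JQ1 alone the largest rises were near Akd1, from 32.7, 27.9 and 38.1 to 90.8, 85.5 and 73.7 counts, and Tmem87b, from 99.3, 99.1 and 119 to 232, 284 and 253. Their log2 fold-changes were 1.33 ± 0.24 and 1.27 ± 0.18 (edgeR adjusted p = 1.3e-05 and 9.1e-08). Clec4a2, a C-type lectin receptor gene, and Arhgap22 had the largest falls, by log2 fold-changes of -1.60 and -1.45. Clec4a2 went from 106, 120 and 93.7 counts to 31.4, 28.9 and 43.2, and lay at 143, 153 and 151 with IL-10.

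The response to LPS differed between treated and untreated cells at a minority of members. In the interaction test, which subtracts the LPS response of untreated cells from that of treated cells, (+)-JQ1 gave 228 members with a weaker or more negative response (2.82%) and 76 with a higher one (0.941%), where 1.33% and 0.658% of distal peaks did. IL-10 gave 503 (6.23%) and 239 (2.96%), where 3.33% and 2.15% did. The upward share of the member calls was 25% and 32.2%, against 33.1% and 39.3% in all distal peaks. That of members turned to 86.6% and 81.9% with total-count scaling and to 79.8% and 76.5% with loess offsets. The direction of the interaction over all members depended on the scaling, and the counts depended on 1 replicate: without replicate 2, only 1 member was lower and 5 were higher with (+)-JQ1, and 45 and 57 with IL-10.

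Genes of AP-1 and related proteins were themselves near members, within the range of the other gene lists. Of 16 such genes, 10 had a member within 25 kb of a TSS. The other lists gave 14 of 30 inflammatory genes, 11 of 20 TRE targets and 10 of 13 annotated macrophage lineage genes. The AP-1 list had 19 members in all, and 6 of the 19 rose and none fell with LPS, with a median log2 fold-change of 0.32. Over all members 24.9% rose and 8.67% fell, with a median of 0.16. The member near Junb was at 371, 420 and 561 counts in unstimulated cells and 827, 764 and 699 with LPS, which did not overlap (log2 fold-change 0.76 ± 0.14, edgeR adjusted p = 7.5e-06). The strongest members near Fosl1, Bach1 and Fosb gave log2 fold-changes of 0.16, -0.02 and -0.14, with edgeR adjusted p of 0.4, 0.95 and 0.52. No member of the AP-1 list rose or fell with either treatment under LPS. Over all members, (+)-JQ1 raised 3.55% and lowered 5.96% under LPS, and IL-10 raised 7.58% and lowered 6.79%. A list of 19 members is too short to be told apart from these shares.

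Inflammatory genes had members that rose with LPS. Of 30 genes, 14 had a member within 25 kb, 22 members in all, and 19 of the 22 rose and none fell with LPS, with a median log2 fold-change of 1.20, where 24.9% of all members rose. Under LPS, (+)-JQ1 lowered 4 and raised none, where it lowered 5.96% and raised 3.55% of all members. IL-10 lowered 3 and raised 2, where it lowered 6.79% and raised 7.58%. The member near Nfkbia, which encodes the NF-κB inhibitor IκBα, was at 196, 182 and 186 counts unstimulated and 1000, 846 and 863 with LPS (log2 fold-change 2.27 ± 0.15, edgeR adjusted p = 2.3e-24). It stayed at 771 to 1240 with (+)-JQ1 and 919 to 1390 with IL-10. A member inside Art3, within 25 kb of the chemokine gene Cxcl10, went from 293, 347 and 381 to 847, 888 and 838. Nos2, for the inducible nitric oxide synthase, had a 19898-base member with 9 TREs at 488, 390 and 265 counts unstimulated, 829, 772 and 820 with LPS, 570, 527 and 423 with LPS + (+)-JQ1 and 1090, 874 and 1130 with LPS + IL-10.

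Of 20 genes known as TRE targets, 11 had a member, 18 in all, and 5 rose and 1 fell with LPS, near the 24.9% and 8.67% of all members. Their median log2 fold-change was 0.28. Members near the adhesion receptor gene Cd44 and near Plaur and Plau, the receptor and enzyme of the urokinase system, rose by log2 fold-changes of 1.07, 0.89 and 0.51 (edgeR adjusted p = 2.5e-09, 2.2e-07 and 0.0031). Hmox1 encodes haem oxygenase 1, a classical target of NRF2. Its 3 GC-flanked TREs lay in a member at 176, 260 and 347 counts unstimulated, 352, 422 and 391 with (+)-JQ1, 363, 397 and 369 with IL-10 and 357, 302 and 298 with LPS. The unstimulated libraries spread widely, and mouse 3 lay inside the LPS range. The log2 fold-changes were 0.56 ± 0.15 with (+)-JQ1, 0.52 ± 0.15 with IL-10 and 0.28 ± 0.15 with LPS (edgeR adjusted p = 0.0036, 0.012 and 0.15).

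Of 14 macrophage lineage genes, 13 of them in the annotation, 10 had a member, 13 in all, and 2 rose and none fell with LPS, where 24.9% and 8.67% of all members did. Their median log2 fold-change was 0.35. The Emr1 member, in the gene for the F4/80 antigen, rose from 201, 196 and 219 to 393, 523 and 478 counts (log2 fold-change 1.17 ± 0.14, edgeR adjusted p = 3e-11). (+)-JQ1 alone lowered it to 113, 128 and 150. The member over Cd68 rose with (+)-JQ1 alone, from 270, 281 and 359 to 530, 542 and 526. Those near Cebpb and Cx3cr1 gave log2 fold-changes of 0.33 and 0.29 with LPS and edgeR adjusted p of 0.11 and 0.094.

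The peaks with the most TREs were not the most responsive. Those with 18, 17 and 16 TREs lay near Pomc, Gmpr and Ankrd12, and the one with 15 over an exon of Itgam, which encodes the integrin CD11b. At Pomc, Ankrd12 and Itgam, as at Gmpr, TREs recur in short tandem repeats, where reads may map to more than 1 copy. Stretches of 295, 292 and 296 bases held 12, 7 and 7 of them. The Gmpr peak is shown as the example, with 13 TREs in 290 bases.

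Gmpr, chr13:45719292-45719581: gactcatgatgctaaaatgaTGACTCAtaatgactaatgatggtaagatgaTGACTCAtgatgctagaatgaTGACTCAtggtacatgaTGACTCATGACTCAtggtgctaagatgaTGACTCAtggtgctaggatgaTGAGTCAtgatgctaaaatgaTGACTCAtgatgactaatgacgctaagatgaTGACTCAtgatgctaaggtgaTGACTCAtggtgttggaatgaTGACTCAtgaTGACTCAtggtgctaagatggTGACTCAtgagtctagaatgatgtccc

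It was at 54.1, 23.7 and 55.6 counts unstimulated and 66.5, 71.3 and 67.3 with LPS (log2 fold-change 0.63 ± 0.24, edgeR adjusted p = 0.041). Ankrd12 rose by 0.65 ± 0.20 on the same scale (edgeR adjusted p = 0.0077). Pomc, with 18 TREs, was at 12.6, 5.16 and 15.4 and then 32.8, 15 and 20.2, which overlapped. Its log2 fold-change was 1.05 ± 0.41 (edgeR adjusted p = 0.051), and that of Itgam was 0.44 ± 0.15 (edgeR adjusted p = 0.022). Over all members the median was 0.16 and the 75th percentile 0.57. The Itgam member went from 157, 145 and 151 counts unstimulated to 217, 260 and 277 with IL-10 and 386, 439 and 401 with LPS + IL-10, where it lay above every other group.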

How the data were processed

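Counts of reads in a union of 194284 ATAC-seq peaks were deposited by the authors with no normalization, for the union and again for its promoter and distal parts. Per the study's methods, reads were processed with PEPATAC and aligned to mm9 with bowtie2, and per the labels peaks were called with MACS2 and annotated with ChIPSeeker. Peaks were called per library before they were merged. The tool that counted reads is not given in the sources used here. Peak starts were read as BED coordinates and are written 1-based. There were 6 columns of the table that match none of the 18 libraries and were not used. Reads without molecular identifiers mean that errors cover the spread between libraries only.

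TREs were found on the mm9 sequence of each distal peak, and positions, exons and starts came from the GENCODE vM1 annotation of that build. Counts were fitted over all 194230 peaks that passed the low-count filter with edgeR 4.0.16 in R 4.3.3 (TMM, quasi-likelihood test, all 6 groups in 1 fit, Benjamini-Hochberg adjustment over all peaks). A call had FDR under 0.05 and a log2 fold-change beyond 0.5. SE is the fold-change over the square root of its F statistic. DESeq2 1.42.0, other scalings, other definitions of a member, no filter, a replicate block and fits without single libraries were alternatives. The fit was tested on simulated data.

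Members named were the 6 with the largest rises and falls with LPS, the 4 for each treatment under LPS, the 2 for the other comparisons, the 4 with the most TREs and the 4 strongest within 25 kb of each gene list. The first 3 kinds needed 50 mean normalized counts and 1 direction in all 3 same-numbered pairs. The members and lists were chosen with earlier results of these data known. Same-numbered libraries were taken to share a mouse, from the 3 mice the labels give. Their deviations from group means had a mean correlation over members of 0.0104 (45 pairs, -0.128 to 0.0967), against -0.00518 for other pairs. No sequence from chromosome 18 is printed. A gene of the marker lists is not reported here.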

Additional observations from a re-analysis of the deposited data

Results flagged for a closer look

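Named members are listed here where the response to LPS differed between treated and untreated cells by the test of that difference itself (edgeR interaction term, FDR under 0.05). Values are log2 differences, treated minus untreated, and negative values mean a lower response with the treatment. The sign of the response counts here, so a smaller fall with LPS is listed as higher. Over all members the direction of these differences turned with the scaling, so each value holds for TMM only. Groups of 3 libraries were not tested for outlying libraries.

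With (+)-JQ1 the response was lower at both Aoah peaks (-2.01 and -1.78), Gata2 (-1.78), Ckap2l near Il1a (-1.71), Ptgs2 (-1.38), Tlr7 (-1.23), Akd1 (-1.23), Rasgef1b (-1.02), Akap7 (-1.02), Socs3 (-0.74) and the peak near Junb (-0.68). It was higher at Ccdc83 (1.53), Cerk (1.25), Slamf6 (1.15), Slc43a2 (1.00) and Emr1 (0.77). Of these, only Emr1 rose with LPS alone. At Ccdc83, Cerk, Slamf6 and Slc43a2 the higher value was a smaller fall. Their log2 fold-changes with LPS were -2.00, -2.27, -2.49 and -1.94 in untreated cells and -0.47, -1.02, -1.34 and -0.95 within (+)-JQ1. Slamf6 and Cerk had already fallen with (+)-JQ1 alone, by log2 fold-changes of -1.08 and -1.06. Akd1, Akap7 and Socs3 had risen with (+)-JQ1 alone, by log2 fold-changes of 1.33, 0.85 and 0.63. Under LPS, (+)-JQ1 moved these 3 by 0.11, -0.165 and -0.11 against LPS alone (edgeR adjusted p = 0.85, 0.6 and 0.76).

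With IL-10 the response was lower at Ckap2l (-2.05), Phldb2 (-1.75), Rasgef1b (-1.64), Socs3 (-1.33), Fam136b-ps (-1.24), Il7 (-1.22), Ttc26 (-1.08), Slc25a13 (-1.04), Akd1 (-1.03), Gmpr (-1.03), Akap7 (-0.98) and the peak near Junb (-0.75). It was higher at Pfkfb3 (2.71), F13a1 (1.90), March1 (1.55), Kcnk13 (1.37), Pigy (1.19), Slamf6 (1.18), Slc43a2 (1.10), 1810029B16Rik (1.06) and Tmem87b (0.90). Socs3, Akap7 and the peak near Junb had risen with IL-10 alone. Slamf6, Slc43a2 and Tmem87b fell with LPS alone, so the higher value there was a smaller fall. Their log2 fold-changes with LPS were -2.49, -1.94 and -1.10 in untreated cells and -1.31, -0.85 and -0.20 within IL-10. Kcnk13 and F13a1 fell with LPS alone, by -0.62 and -0.87, and rose within IL-10, by 0.75 and 1.035.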

How the results depend on the processing

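The share of members that rose with LPS stayed above that of distal peaks under every scaling tried, and the 2 comparisons of LPS within a treatment kept their counts within 1.5 times, except the members that fell within (+)-JQ1 without replicate 2. DESeq2 gave 180 falls with (+)-JQ1 alone and 420 negative interactions with (+)-JQ1. Total-count scaling gave 1260 rises and 1368 falls with LPS, 144 and 1337 with (+)-JQ1 alone, 154 and 813 with IL-10 alone, 381 and 59 interactions with (+)-JQ1 and 930 and 205 with IL-10. Loess offsets gave 135 and 620 with (+)-JQ1 alone, 133 rises with IL-10 alone, and 293 and 74, then 622 and 191 interactions. They moved the median difference between members and distal peaks to 0.072 (LPS), 0 (LPS + (+)-JQ1 against LPS), -0.065 ((+)-JQ1), -0.102 (IL-10) and -0.026 (between treatments under LPS). Distal peaks fitted alone gave 134 and 177 falls with (+)-JQ1 and IL-10 alone, and 36 and 152 positive interactions. The causes were not tested. For the named members, 891 values under an alternative kept their direction and call, 70 kept the direction and lost the call, and 0 reversed.

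Without 1 replicate number, or, in comparisons that use the unstimulated group, without its replicate 1 or 2 alone (chosen after seeing the data), rises and falls ranged over 1551 to 2091 and 449 to 649 with LPS, 84 to 288 and 228 to 470 for LPS + (+)-JQ1 against LPS, 358 to 492 and 289 to 444 for LPS + IL-10 against LPS, 197 to 1081 and 75 to 268 with (+)-JQ1 alone, 107 to 901 and 40 to 244 with IL-10 alone, and 198 to 383 and 374 to 584 between treatments under LPS. Interactions ranged over 5 to 70 and 1 to 303 with (+)-JQ1 and 57 to 216 and 45 to 482 with IL-10. Falls within (+)-JQ1 ranged over 199 to 249, and the median difference for LPS + (+)-JQ1 against LPS over 0.035 to 0.044. With the replicate number as a block, 2003 members rose and 700 fell with LPS, and the block changed no call of a named member and no count by over 1.5 times. These fits have fewer samples, and the lowest of each of these counts came without replicate 2.

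With 3 or more TREs the median difference with LPS was 0.34, and the shares of distal counts were 3.87%, 3.98%, 3.95%, 4.34%, 4.35% and 4.42% in the unstimulated, (+)-JQ1, IL-10, LPS, LPS + (+)-JQ1 and LPS + IL-10 groups. With 2 or more TREs in the central 500 bases they were 1.36%, 1.53%, 1.41%, 1.62%, 1.68% and 1.58%, and with members of at most 1500 bases 1.89%, 2.18%, 2.01%, 2.17%, 2.29% and 2.12%. Those definitions in turn moved the median differences to 0.015 and 0.011 (LPS + (+)-JQ1 against LPS), -0.058 and -0.042 (LPS + IL-10 against LPS), -0.024 and -0.031 (IL-10 alone), 0.063 and 0.056 (between treatments), and, for the narrow members, 0.063 ((+)-JQ1 alone).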

Other observations

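Promoter peaks also carried TREs. Of 36670 promoter peaks, 2274 (6.2%) held 2 or more, a little more than the 5.12% of distal peaks. They were not tested here as a set.

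Among members over an exon, 5.35% rose with (+)-JQ1 alone, against 8.75% of those in an intron and 12.1% of those between genes. The same order held in all distal peaks, at 3.09%, 3.76% and 5.47%. Members with no TSS within 25 kb rose with LPS in 26.6% of cases and those with one in 23.9%.

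Members with an ETS match rose with LPS in 26% and those without in 24.6%. In peaks of over 500 and up to 1500 bases with no TRE and at least 2 ETS matches, 19% fell with LPS within IL-10, against 6.18% of all peaks of that width with no TRE and 3.95% of members of that width.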
